A study of Mus musculus with 3 samples.

Results

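CD4 T cells of the mouse suprarenal aorta were picked from single-cell RNA libraries by their transcripts, and 206 of 5465 kept barcodes met the rule: 130 of 2839 in aneurysm, 60 of 1848 in room air and 16 of 778 in control. A barcode was kept with at least 200 detected genes and at most 10% of its unique molecular identifiers (UMIs, each standing for 1 captured transcript) from mitochondrial genes. A CD4 T cell then needed at least 2 UMIs of the CD3 genes Cd3d, Cd3e and Cd3g together, at least 1 UMI of Cd4 or Izumo1r, and 0 UMIs of Cd8a, Cd8b1, Cd163l1 and Cd79a. Its C1qa, C1qb and C1qc UMIs together had to stay under 0.4% of its total. The aneurysm library pooled 4 Apoe-/- mice on a Western diet that breathed cigarette smoke for 16 weeks and were chosen because they had developed a measurable dilatation. The room air library pooled 5 Apoe-/- mice on the same diet for 16 weeks without smoke, and the control library pooled 5 C57BL/6 mice on chow. Deficiency of Apoe and the Western diet are therefore shared by the aneurysm and room air animals, and age and sex are not given in the labels used here. In every pool CD45+CD31- and CD45-CD31+ cells were sorted, so that the share of leukocytes was set by the sort. Smoke-exposed mice without a dilatation, whose cells are counted in the labels, were not analysed here.

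CD4 T cells recognise peptides on class II molecules of the major histocompatibility complex, through a T cell receptor coupled to CD3 and with CD4 as coreceptor. Naive CD4 T cells carry the chemokine receptor CCR7 and recirculate through lymph nodes. Antigen-experienced cells leave that route, enter tissues, and take up helper or regulatory programs, the last under the transcription factor FOXP3. In atherosclerotic vessels CD4 T cells gather in plaque and adventitia, where type 1 helper cells are regarded as promoting lesions and regulatory T cells as restraining them.

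The libraries held 16698309 UMIs in aneurysm, 9998517 in room air and 2568192 in control, with a median of 4481, 3898.5 and 2704 UMIs per kept barcode. Stated viability was 94%, 91% and 73%. Each group is 1 library, so that no value has a replicate, no p-value is given, and every interval below is a 95% interval that covers counting error only. The CD4 T cells summed to 537603 UMIs in aneurysm, 169404 in room air and 36216 in control, so that control values are the least precise. Expression is given as counts per 1e+06 UMIs of the summed cells (CPM). The libraries shared 9 cell barcode sequences, 5 between aneurysm and room air, 4 between room air and control, and 0 between aneurysm and control. Apoe, the deleted apolipoprotein gene, had 1 UMI in the aneurysm CD4 T cells, 0 in the room air cells and 29 UMIs in the control cells (800.8 CPM). B cells of the same libraries, which served as a comparison gate, had 3.75, 4.30 and 1289.8 CPM of Apoe, so that the control level in CD4 T cells was under that in B cells.

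The rule chose cells by Cd3, Cd4, Izumo1r, Cd8, Cd163l1, Cd79a and C1q UMIs, and the levels of those genes are description. Cd4 (chromosome 6, 124864692 to 124888221, minus strand, mm10) encodes the coreceptor, and Izumo1r (chromosome 9, 14885814 to 14903949, minus strand), which encodes folate receptor 4, is known from regulatory and antigen-experienced CD4 T cells and from naive CD4 T cells at a lower level. Cd4 alone was detected in 52 of 130 aneurysm cells, 30 of 60 room air cells and 10 of 16 control cells. Izumo1r alone was detected in 59, 19 and 6 cells, and both genes in 19, 11 and 0 cells. Membership thus rested on Izumo1r without Cd4 in 45.4% of the aneurysm cells, 31.7% of the room air cells and 37.5% of the control cells. Izumo1r was also detected in 14.2%, 8.60% and 9.30% of T cells with a Cd8 UMI in aneurysm, room air and control, against 0.962%, 3.07% and 0% of B cells. Cd4 itself was detected in 5.95%, 5.02% and 0% of those Cd8-detected T cells and in 0.962%, 0.613% and 0% of B cells. The control B cell gate held 100 cells, where 0 detections allow, at a limit of 3 counts, up to 3% of cells with a UMI.

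Many barcodes lay next to the Cd4 and Izumo1r threshold, and fewer next to the CD3 threshold. A single UMI of Cd4 or Izumo1r carried 73 of the aneurysm members, 32 of the room air members and 13 of the control members. Just outside, 176, 102 and 38 CD3-bearing barcodes failed only for want of a Cd4 or Izumo1r UMI, and 59, 33 and 4 failed only because of a Cd8 UMI, 20, 17 and 1 of them with exactly 1. At the CD3 threshold, 8, 7 and 2 members had exactly 2 UMIs, and 4, 7 and 0 barcodes with 1 UMI lay just outside. Counts of CD4 T cells are therefore counts of detected ones. Cd28, a costimulatory receptor that the rule did not use, was detected in 83 of 130 aneurysm cells, 38 of 60 room air cells and 3 of 16 control cells. Markers of other lymphocytes were low: in summed CPM, the 5 NK cell markers had 53.9 in aneurysm, 11.8 in room air and 0 in control, and the 6 listed B cell markers had 39.1, 130 and 27.6.

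A number of the chosen barcodes also carried myeloid or antigen-presenting transcripts. Class II transcripts (Cd74, H2-Aa, H2-Ab1, H2-Eb1) made up at least 2% of the UMIs, or Fcer1g, Tyrobp, Cst3 and Lyz2 at least 1%, in 25 of 130 aneurysm cells (19.2%, 12.8 to 27.1), 2 of 60 room air cells (3.33%) and 1 of 16 control cells (6.25%). These barcodes, called mixed here, had a median of 9196, 7736 and 5012 UMIs, against 2564, 2496.5 and 1863 UMIs in the others. They held 43.6% of the UMIs of all aneurysm CD4 T cells, 9.13% in room air and 13.8% in control. Of the 8 dendritic cell markers, the summed level was 43534 CPM in mixed aneurysm barcodes and 2537 CPM in the other aneurysm cells. Cd74 and H2-Ab1 are among these 8 markers and also define the mixed barcodes. This gap is therefore a description of the split and not separate evidence of dendritic cells. In the T cells of the CD8 gate (Cd8a or Cd8b1 detected, Cd4 and Izumo1r at 0, otherwise the same rule) mixed barcodes made up 7.48%, 6.50% and 7.69%. Of the barcodes with the highest scores of the doublet caller Scrublet, 1 was among the 130 aneurysm members and 0 were among the room air and control members, but its automatic calls were too few to rely on, and the part of doublets in the mixed barcodes was not otherwise tested. Because they weigh unevenly on the aneurysm library, gene levels below come from the 105, 58 and 15 cells without mixed barcodes (178 in all), a choice made after the data were seen, and values over all 206 cells stand beside them where the direction, the side of 1 that an interval lies on, or the size by over 1.5 times was different.

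CD4 T cells were 4.58% (3.84 to 5.41) of kept barcodes in aneurysm, 3.25% (2.49 to 4.16) in room air and 2.06% (1.18 to 3.32) in control. Without mixed barcodes the shares were 3.70%, 3.14% and 1.93%, and the aneurysm and room air intervals overlapped widely. When Izumo1r was not counted, the shares were 2.50% in aneurysm and 2.22% in room air, and after every barcode was thinned to 1000 UMIs they were 1.69%, 1.68% and 1.03%. Among T cells assigned to either the CD4 rule or the CD8 gate, CD4 cells made up 30.7% (26.3 to 35.3) in aneurysm, 19.6% (15.3 to 24.5) in room air and 29.1% (17.6 to 42.9) in control. Without mixed barcodes these were 27.9% (23.4 to 32.7), 20.1% (15.7 to 25.2) and 29.4% (17.5 to 43.8). Room air thus had the lowest CD4 share among assigned T cells. Its interval lay under that of aneurysm with the mixed barcodes kept and overlapped it without them, and the control interval overlapped both others. Cd8 UMIs, which the CD4 rule bars and the CD8 gate needs, were also detected in 4.81% (2.96 to 7.33) of B cells in aneurysm, 15.95% (10.7 to 22.5) in room air and 1% (0.0253 to 5.45) in control, and their part in the lower CD4 share of room air was not tested. T cells with neither marker detected made up 26.7%, 23.1% and 39.2% of the clean CD3-bearing barcodes in aneurysm, room air and control, and their assignment is unknown.

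**Figure D1:**
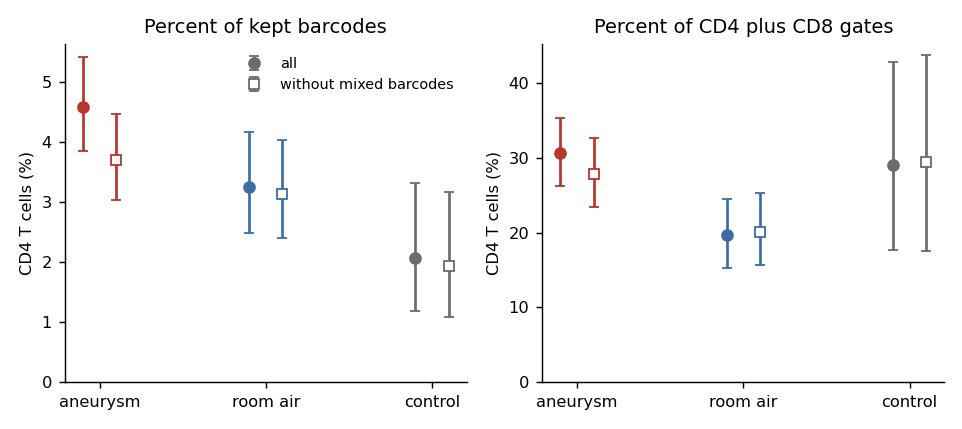
CD4 T cells as a percent of kept barcodes (left) and of CD4 plus CD8 gate T cells (right) in aneurysm, room air and control; filled circles are all cells, open squares the cells without mixed barcodes, and bars exact Clopper-Pearson 95% intervals. The aneurysm share of kept barcodes is 4.58% with and 3.70% without mixed barcodes, and the room air share of CD4 plus CD8 T cells (19.6%) is the lowest of the 3.

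Most CD4 T cells fell clearly to one side when the UMIs of 8 naive genes (among them Ccr7, Lef1, Tcf7, Klf2 and Igfbp4) were set against those of 8 experienced genes (S100a4, S100a6, S100a10, S100a11, Lgals1, Crip1, Itgb1, Cd44). Cells with a Foxp3 UMI were kept apart. Without mixed barcodes, the naive range held 50 of 105 aneurysm cells (47.6%, 37.8 to 57.6), 10 of 58 room air cells (17.2%, 8.59 to 29.4) and 13 of 15 control cells (86.7%, 59.5 to 98.3). The experienced range held 40% (30.6 to 50), 79.3% (66.7 to 88.8) and 6.67% (0.169 to 31.9). The room air library was thus mostly experienced, the control library mostly naive, and the aneurysm library divided between both. Leaving out the mixed barcodes removed no aneurysm cell from the naive range, which held 50 cells either way, while the experienced range held 42 aneurysm cells without them and 63 with them, so that this choice itself raised the aneurysm naive share. Over all 206 cells the naive range held 38.5% (30.1 to 47.4), 16.7% (8.29 to 28.5) and 81.2% (54.4 to 96.0). After thinning each cell to 1500 UMIs, which left out 2 control cells, it held 33.8%, 15% and 71.4%, in the same order.

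These ranges are cuts through a score and not cell types. Within 1 UMI of the cut lay 14 of 130 aneurysm cells, 4 of 60 room air cells and 4 of 16 control cells, and 6, 0 and 1 cells were ties. The median cell had 6 naive and 9 experienced UMIs in aneurysm, 3 and 11 in room air, and 6.5 and 3 in control. B cells, which express several of these genes, fell in the naive range in 20%, 19.0% and 31.0% of cells, so that they did not show the gap between aneurysm and room air. In the experienced range were 69.2%, 70.6% and 64% of B cells. Barcodes with C1q genes at 1% of UMIs or more, and no Cd3 or Cd79a UMI, were there in 97.4%, 98.3% and 93.7%. The experienced genes are thus not particular to T cells, and the part of macrophage transcripts in the room air experienced share was not tested. The CD8 gate without mixed barcodes did show the gap in the naive range: 48.9% (42.8 to 55.0) of its aneurysm cells, 13.9% (9.72 to 19.1) of its room air cells and 58.3% (40.8 to 74.5) of its control cells were in it. Room air had the lowest naive share in both gates, and in the CD8 gate the aneurysm and control intervals overlapped. The difference between the gates was not tested.

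**Figure D2:**
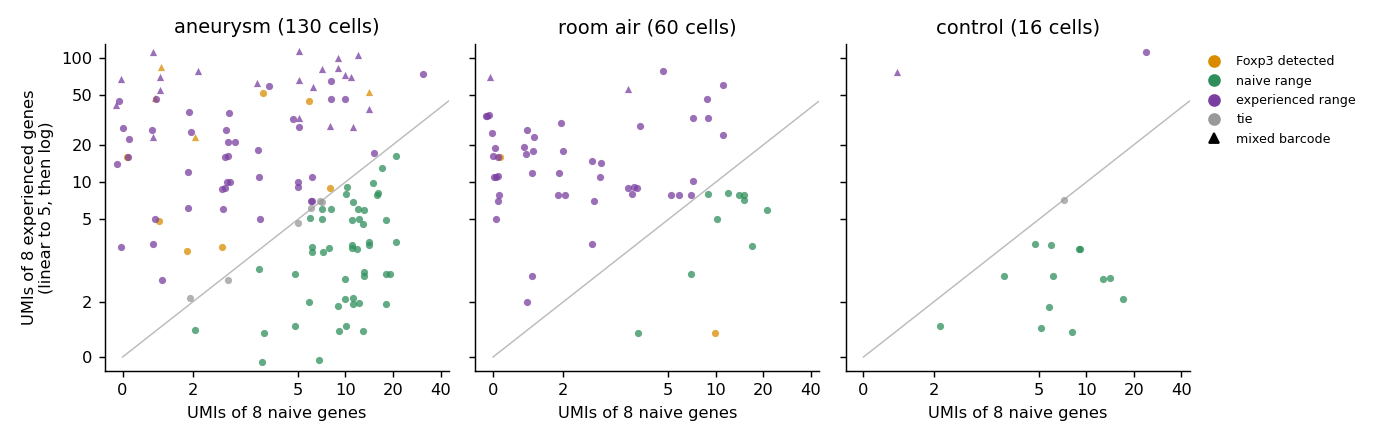
Each point is 1 CD4 T cell, with the UMIs of 8 naive genes on the horizontal axis and of 8 experienced genes on the vertical axis (both linear to 5 UMIs, then logarithmic, with small random shifts); colours give the range, triangles are mixed barcodes, and the line marks equal counts. Aneurysm cells lie on both sides (50 naive, 63 experienced), room air cells mostly above the line (10 and 48) and control cells mostly below (13 and 2).

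**Figure D3:**
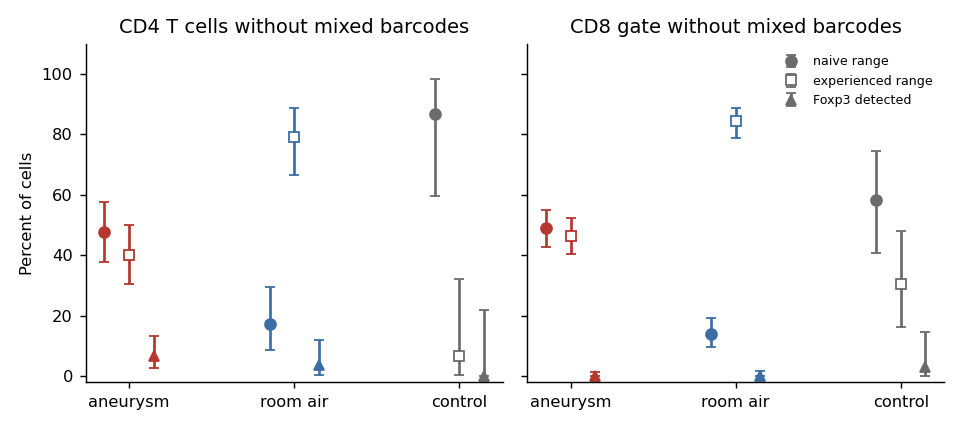
Percent of cells in the naive range (circles), the experienced range (open squares) and with a Foxp3 UMI (triangles) among CD4 T cells (left) and CD8 gate T cells (right), both without mixed barcodes, with exact Clopper-Pearson 95% intervals. Naive shares are 47.6%, 17.2% and 86.7% for CD4 and 48.9%, 13.9% and 58.3% for CD8 T cells in aneurysm, room air and control.

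Cells of the 2 ranges also differed in genes that made no part of the score. Higher in the naive range (summed libraries, without mixed barcodes) were Ly6c1, which encodes a lymphocyte surface antigen, at 10.2-fold (3.97 to 33.3), Satb1, a chromatin organiser of T cell development, at 3.86-fold (2.35 to 6.54), and Rasgrp2, an activator of integrin adhesion, at 4.05-fold (2.15 to 8.08). Lower in the naive range was Ikzf2, encoding Helios, with 0 UMIs there and 88 in the experienced range, at least 20.2-fold lower against a floor of 3 UMIs. Tnfrsf4 (OX40), with 1 UMI against 69, was lower by 8.23-fold to 1900-fold. The chemokine gene Ccl5 was 9.99-fold lower (6.60 to 15.8), the granule gene Nkg7 10.3-fold lower (6.31 to 18), and Cxcr6, a receptor for tissue homing, had 0 UMIs against 43. Pdcd1, encoding the checkpoint receptor PD-1, had 1 UMI against 45. These ratios share cells and depth with the score, and are given as a description.

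Aneurysm against room air asks what differed between smoke-exposed mice with a dilatation and unexposed mice on the same genotype and diet. Among 3655 genes measured in the cells without mixed barcodes (at least 5 UMIs expected in the smaller library), 5.85% (214) were at least 2-fold higher in aneurysm and 7.33% (268) at least 2-fold lower, and the median log2 ratio was -0.10. Of the naive and recirculating list, 14 of 16 measured genes were higher and 5 were past 2-fold higher, with a median log2 ratio of 0.64. The list summed to 4190 CPM in aneurysm and 3112 CPM in room air, a ratio of 1.35 (1.21 to 1.5). Over all 206 cells that ratio was 0.981 (0.885 to 1.09), with 10 of 16 genes higher. With the mixed barcodes kept it was 1.33 on barcodes thinned to 1000 UMIs before the rule and 1.30 as a mean over cells, so that the direction depended on how the cells were weighed. The naive score used 8 of the 18 genes of this list. The CD8 gate had 1.54 (1.45 to 1.64) and the B cell gate 0.831 (0.773 to 0.893) for the same list.

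Igfbp4 (chromosome 11, 99041244 to 99054392, plus strand), a binding protein for insulin-like growth factors found in naive T cells, had 366 CPM in aneurysm cells, 90.9 CPM in room air cells and 288 CPM in control cells, a ratio of 4.03 (2.30 to 7.60) in aneurysm over room air. It was detected in 38 of 105 aneurysm cells, 8 of 58 room air cells and 6 of 15 control cells. Room air was the lowest library for Igfbp4, and its interval lay under that of aneurysm. The CD8 gate with mixed barcodes kept had 264 CPM in aneurysm and 46.1 CPM in room air. B cells had the other order, with 18.8 CPM in aneurysm and 137.5 CPM in room air, the last above the room air CD4 T cells. The part of transcripts from other cells in these levels of Igfbp4 was not tested. Satb1 had 244 CPM in aneurysm cells, 90.9 CPM in room air cells and 64.1 CPM in control cells, a ratio of 2.68 (1.5 to 5.15). Lef1, a transcription factor of naive T cells, had 442 CPM in aneurysm cells, 266 CPM in room air cells and 769 CPM in control cells, a ratio of 1.66 (1.16 to 2.42), with control above both. Over all members the Lef1 ratio was 1.17 (0.823 to 1.69) and that of Klf2 0.577 (0.443 to 0.756). For Ccr7 and for Klf2, a factor that drives the egress receptor S1pr1, the intervals of the ratio without mixed barcodes included 1. Ccr7 had 172 CPM in aneurysm cells, 117 CPM in room air cells and 449 CPM in control cells, a ratio of 1.47 (0.844 to 2.66), and Klf2 had 475 CPM in aneurysm cells, 552 CPM in room air cells and 1698 CPM in control cells, a ratio of 0.860 (0.654 to 1.14). The control level of Klf2 was thus above both Apoe-/- libraries, whose intervals overlapped.

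The antigen-experienced list moved the other way. Of its 15 measured genes 14 were lower in aneurysm and 4 were past 2-fold lower, and it summed to 5276 CPM in aneurysm and 7744 CPM in room air, a ratio of 0.681 (0.632 to 0.735). Over all 206 cells the ratio was 0.912 (0.857 to 0.970), with 7 of 15 genes lower. Itgb1, the shared chain of the adhesion integrins, had 205 CPM in aneurysm cells, 461 CPM in room air cells and 0 CPM in control cells, a ratio of 0.443 (0.310 to 0.632). No Itgb1 UMI was found in the 15 control cells, where 1 UMI is worth 32.0 CPM. Lgals1 (galectin-1) had 669.8 CPM in aneurysm cells, 1254 CPM in room air cells and 288 CPM in control cells, a ratio of 0.534 (0.436 to 0.654), and was detected in 44 of 105 aneurysm cells, 49 of 58 room air cells and 5 of 15 control cells. Lgals3 (galectin-3), also a macrophage gene, had 267 CPM in aneurysm cells, 637 CPM in room air cells and 96.1 CPM in control cells, a ratio of 0.420 (0.309 to 0.569), which turned to 1.22 (1.01 to 1.48) over all members. Maf and Rora, transcription factors of differentiated helper cells, had 56.1 CPM in aneurysm cells, 149 CPM in room air cells and 32.0 CPM in control cells, and 46.2 CPM in aneurysm cells, 123 CPM in room air cells and 32.0 CPM in control cells. Their ratios were 0.375 (0.188 to 0.734) and 0.374 (0.174 to 0.787). The intervals of all 5 genes lay under 1 without mixed barcodes. Crip1, a LIM protein and the most abundant gene of the list, was closer to 1 at 0.805 (0.681 to 0.953), as was S100a11, a calcium-binding protein, at 0.941 (0.729 to 1.22). Over all members Crip1 had 0.970 (0.849 to 1.11) and S100a11 1.32 (1.07 to 1.64).

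The costimulatory genes Icos and Tnfsf8 and the cytokine receptor gene Il7r were also lower in aneurysm than in room air. The list of cytokine and growth signalling receptors as a whole had 7 of 12 measured genes lower and 0 past 2-fold, with a median log2 ratio of -0.08 beside -0.10 over all measured genes. Icos (chromosome 1, 60977927 to 61000320, plus strand), the inducible costimulator that binds ICOS ligand on B cells and other presenting cells, had 62.7 CPM in aneurysm cells, 201 CPM in room air cells and 160.2 CPM in control cells. It was detected in 15 of 105 aneurysm cells, 21 of 58 room air cells and 3 of 15 control cells, and the ratio of aneurysm over room air was 0.311 (0.166 to 0.569). With all members Icos had 39.1 CPM in aneurysm and 183.0 CPM in room air, 4.68-fold lower (2.61 to 8.58). Tnfsf8, encoding CD30 ligand, had 59.4 CPM in aneurysm cells, 208 CPM in room air cells and 96.1 CPM in control cells, a ratio of 0.286 (0.151 to 0.525). Il7r (chromosome 15, 9505788 to 9530176, minus strand), the receptor for the survival cytokine IL-7, had 238 CPM in aneurysm cells, 468 CPM in room air cells and 385 CPM in control cells, a ratio of 0.508 (0.361 to 0.714). The aneurysm level was the lowest of the 3 for Icos, Tnfsf8 and Il7r, and the control intervals of the 3 genes overlapped those of both other libraries.

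The difference in Icos was also present inside the experienced range. Among the 42 aneurysm and 46 room air cells of that range without mixed barcodes, Icos had 93.6 CPM in aneurysm and 246.5 CPM in room air, a ratio of 0.380 (0.182 to 0.750). Il7r had 194 CPM and 370 CPM there, a ratio of 0.526 (0.314 to 0.866), and Tnfsf8 115 CPM and 246.5 CPM, a ratio of 0.467 (0.238 to 0.885). Those 3 intervals lay under 1. Rora had 79.2 CPM and 148 CPM, from 11 and 18 UMIs, and its interval of 0.229 to 1.20 included 1. Split by marker, Icos had 96.1 CPM in aneurysm, 221.9 CPM in room air, with 185 CPM in control, among cells with Cd4 alone, and 22, 245.9 and 104 CPM among cells with Izumo1r alone. In the CD8 gate, Icos was low in every library, with 35.9 CPM in aneurysm, 40.3 CPM in room air, and in control 24.9 CPM. Il7r there had 212 CPM in aneurysm and 197 CPM in room air, and Tnfsf8 39.5 CPM and 15.5 CPM, so that neither was lower in aneurysm CD8 T cells.

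Of 10 measured costimulation genes 8 were lower in aneurysm and 3 (Tnfsf8, Icos and Cd226) were past 2-fold lower, with a summed ratio of 0.759 (0.657 to 0.878). Over all measured genes 7.33% were past 2-fold lower. Cd28 had 452 CPM in aneurysm cells, 455 CPM in room air cells and 96.1 CPM in control cells, a ratio of 0.994 (0.740 to 1.35), which was 0.725 (0.544 to 0.974) over all members. Cd40lg, the ligand with which CD4 T cells activate B cells and macrophages, had 75.9 CPM in aneurysm cells, 65.0 CPM in room air cells and 96.1 CPM in control cells, a ratio of 1.17 (0.535 to 2.75). Of 7 measured follicular helper genes 5 were lower and 3 (Tnfsf8, Icos and Cd200) past 2-fold lower, with a summed ratio of 0.663 (0.545 to 0.809). Pdcd1 had 92.4 CPM in aneurysm cells, 136 CPM in room air cells and 0 CPM in control cells, a ratio of 0.677 (0.371 to 1.25), and 0.465 (0.259 to 0.852) over all members. The master factor of follicular helper cells, Bcl6, had 9 UMIs over all aneurysm CD4 T cells, 3 in room air and 0 in control, and its companion receptor Cxcr5 had 6, 4 and 0 UMIs, too few for a ratio.

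**Figure D4:**
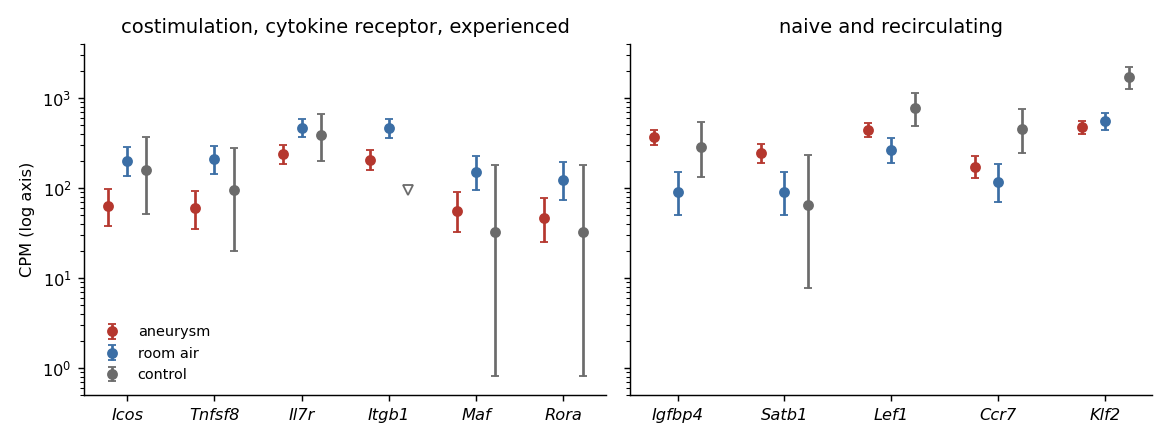
CPM of 11 genes in CD4 T cells without mixed barcodes (log axis) in aneurysm, room air and control; bars are exact Poisson 95% intervals and the open triangle marks 0 UMIs, drawn at the floor of 3 UMIs (96.1 CPM in control). Icos, Tnfsf8, Il7r, Itgb1, Maf and Rora are lower in aneurysm than in room air, Igfbp4, Satb1 and Lef1 are higher, and the Ccr7 and Klf2 intervals of those libraries overlap.

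Among CD4 T cells, Foxp3 UMIs were found in the Apoe-/- libraries, while a few other regulatory transcripts were also found in control. Foxp3 (chromosome X, 7573644 to 7595245, plus strand) was detected in 11 of 130 aneurysm cells (8.46%, 4.30 to 14.6), 2 of 60 room air cells (3.33%, 0.406 to 11.5) and 0 of 16 control cells, where a limit of 3 counts allows up to 18.8% of cells with a UMI. Without mixed barcodes the counts were 7 of 105 (6.67%), 2 of 58 (3.45%) and 0 of 15, and thinned to 1500 UMIs the shares were 4.62%, 3.33% and 0%. The intervals of the libraries overlapped in each case. In the CD8 gate without mixed barcodes Foxp3 was detected in 0 of 272 aneurysm cells, 0 of 230 room air cells and 1 of 36 control cells. Detection of Foxp3 thus stood above that gate in aneurysm, while in control it was not measurable at this number of cells. The rule admits cells by Izumo1r, which regulatory cells carry, and the CD8 gate bars it, so that this comparison is not independent of the rule. Over all members, Izumo1r was detected in 9 of 11 aneurysm cells with Foxp3, against 69 of 119 without. In room air it was detected in 2 of 2 against 28 of 58.

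In aneurysm, several other genes of the regulatory program were detected more often in cells with a Foxp3 UMI. Of the 11 aneurysm cells with Foxp3, 7 were without mixed barcodes. Mixed aneurysm barcodes are deeper (median 9196 against 2564 UMIs), which can raise detection. Of 11 such aneurysm cells, Ikzf2 was detected in 10, against 16 of the 119 aneurysm cells without Foxp3. Tnfrsf4 was detected in 9 of 11 against 15 of 119, Tnfrsf18 (GITR) in 9 of 11 against 39 of 119, and Ctla4 in 3 of 11 against 5 of 119. In room air 2 of 2 Foxp3-detected cells had Tnfrsf4, against 12 of 58, and 2 of 2 had Tnfrsf18, against 21 of 58. Ikzf2 was detected there in 1 of 2 against 14 of 58, and Ctla4 in 0 of 2 against 7 of 58. Icos was not more frequent with Foxp3, in 1 of 11 against 15 of 119 aneurysm cells and 0 of 2 against 21 of 58 room air cells. Nor was Cd28, in 7 of 11 against 76 of 119 and 1 of 2 against 37 of 58. Il2ra, encoding the high-affinity chain of the IL-2 receptor, was detected in 1 of 11 aneurysm cells with Foxp3 and in 0 of 119 without. In room air it was detected in 0 of 2 and in 2 of 58. In control, where no member had Foxp3, Ctla4, Il2ra and Tnfrsf18 were each detected in 1 of 16 cells, and Ikzf2 and Tnfrsf4 in 0. Without mixed barcodes and over the summed libraries, Ikzf2 had 1116 CPM in Foxp3-detected and 189 CPM in the other cells, 5.91-fold higher (3.63 to 9.30). Samhd1, a nucleotide hydrolase, was 4.98-fold higher (3.20 to 7.52), and Gimap4, a GTPase of lymphocyte survival, 2.63-fold (1.74 to 3.86).

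Tnfrsf4 and Tnfrsf18 lie next to each other on chromosome 4 and were detected in the same 9 of 11 proportion in the Foxp3-detected aneurysm cells, so their promoters are shown from 250 bases before to 50 bases after the RefSeq start of the gene (GRCm38.p6, plus strand, chr4:156013445-156013744 and chr4:156026072-156026371). Capitals mark matches to CACCC, the core bound by KLF factors, on either strand, or to CCGGAA, an ETS core.
Tnfrsf4: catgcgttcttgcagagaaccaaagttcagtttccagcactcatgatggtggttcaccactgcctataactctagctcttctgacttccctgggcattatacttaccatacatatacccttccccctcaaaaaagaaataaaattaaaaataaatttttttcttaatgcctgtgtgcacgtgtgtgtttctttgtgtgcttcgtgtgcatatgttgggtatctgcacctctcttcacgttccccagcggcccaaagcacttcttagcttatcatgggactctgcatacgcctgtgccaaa
Tnfrsf18: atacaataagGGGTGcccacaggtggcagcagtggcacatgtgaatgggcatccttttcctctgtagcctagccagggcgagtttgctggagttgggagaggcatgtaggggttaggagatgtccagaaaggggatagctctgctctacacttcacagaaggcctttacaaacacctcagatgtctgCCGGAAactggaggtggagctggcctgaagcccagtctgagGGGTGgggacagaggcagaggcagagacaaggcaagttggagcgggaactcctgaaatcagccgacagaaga
The Tnfrsf18 window held CACCC at 2 places, with first bases at -240 and -22 from the RefSeq start, and CCGGAA at -63. The GENCODE gene starts given elsewhere here differ from those of RefSeq. That of Tnfrsf4 (156013843) lies past the end of its window, and that of Tnfrsf18 (156026164) lies inside its window, before the RefSeq start. Positions and matches therefore hold for the RefSeq windows only. The Tnfrsf4 window held neither. TGANTCA, the AP-1 pattern, was searched on both strands and matched in neither window. Of 32851 RefSeq windows of this length, CACCC was in 57.5%, CCGGAA in 14.9% and TGANTCA in 7.81%, so that a CACCC match is common. A match is a description of these letters and not of binding.

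Summed over the regulatory list, aneurysm was under room air. All 8 measured genes were lower in aneurysm, 0 were past 2-fold, and the sum was 1069 CPM in aneurysm and 1715 CPM in room air, a ratio of 0.623 (0.528 to 0.736). Over all 206 cells the ratio was 0.535 (0.461 to 0.622), and on barcodes thinned to 1000 UMIs before the rule was applied it was 0.920 (0.747 to 1.14), so that its size changed with the thinning. Ikzf2 (chromosome 1, 69531214 to 69687245, minus strand) had 195 CPM in aneurysm cells, 351 CPM in room air cells and 0 CPM in control cells, a ratio of 0.555 (0.377 to 0.818). Tnfrsf4 (chromosome 4, 156013843 to 156016612, plus strand) had 208 CPM in aneurysm cells, 240.4 CPM in room air cells and 0 CPM in control cells, a ratio of 0.865 (0.567 to 1.34), and Tnfrsf18 (156026164 to 156028895) had 201 CPM in aneurysm cells, 279 CPM in room air cells and 32.0 CPM in control cells, a ratio of 0.720 (0.480 to 1.09), and 0.594 (0.408 to 0.877) over all members. Capg, an actin-capping gene that macrophages also express, had 205 CPM in aneurysm cells, 403 CPM in room air cells and 160.2 CPM in control cells, a ratio of 0.508 (0.351 to 0.734). The sum of this list was therefore lower in aneurysm, though its interval on thinned barcodes included 1. The share of cells with Foxp3 was 6.67% (2.72 to 13.3) in aneurysm and 3.45% (0.420 to 11.9) in room air without mixed barcodes, so that its direction was not resolved. Without mixed barcodes the ratios of Ikzf2 and Capg had intervals under 1. Ikzf2 and Tnfrsf4 were also detected in cells without a Foxp3 UMI, where a missed Foxp3 transcript and an absent one cannot be told apart.

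Helper lineage transcripts were sparse. Il4, Il5, Il13, Il17f, Il22 and Il23r had 0 UMIs in all 3 libraries, and Il17a had 1 UMI, in room air. Ifng, the type 1 cytokine, had 5 UMIs in aneurysm, 1 in room air and 0 in control, and its driver Tbx21 had 3, 1 and 0. Il2 had 7, 4 and 0 UMIs, and Il21 3, 0 and 0. At 537603, 169404 and 36216 summed UMIs these counts allow no ordering of the libraries. Gata3, which drives type 2 cells and is present in all T cells, had 92.4 CPM in aneurysm cells, 169 CPM in room air cells and 32.0 CPM in control cells, a ratio of 0.547 (0.309 to 0.971). Cxcr3, the receptor of type 1 cells for interferon-induced chemokines, had 109 CPM in aneurysm cells, 201 CPM in room air cells and 32.0 CPM in control cells, a ratio of 0.541 (0.321 to 0.913), and was detected in 19 of 105 aneurysm cells, 18 of 58 room air cells and 1 of 15 control cells. Cxcr6 had 72.6 CPM in aneurysm cells, 136 CPM in room air cells and 0 CPM in control cells, a ratio of 0.532 (0.279 to 1.02), and 0.465 (0.259 to 0.852) over all members. Of the 4 measured type 1 genes 3 were lower in aneurysm, with a summed ratio of 0.669 (0.512 to 0.875) that was near the 0.593 (0.529 to 0.664) of the CD8 gate.

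Against the CD8 gate, which the rule separated by Cd4, Izumo1r and Cd8 transcripts alone, the CD4 T cells had more Tnfrsf4, Ikzf2 and Cd40lg and fewer cytotoxic transcripts over the summed libraries. Izumo1r, which regulatory cells carry, admits CD4 T cells and is barred from the CD8 gate. The comparison of the regulatory genes Tnfrsf4 and Ikzf2 is thus not independent of the rule. Tnfrsf4 had 208 CPM in CD4 and 3.59 CPM in CD8 T cells of aneurysm, 240.4 CPM and 15.5 CPM in room air, and 0 CPM and 12.5 CPM in control, 22.8-fold higher over the summed libraries. Ikzf2 had 195 CPM and 41.9 CPM in aneurysm and 351 CPM and 51.1 CPM in room air, 5.23-fold higher over the summed libraries. In control, Ikzf2 was detected in 0 of 16 CD4 T cells, so that neither Tnfrsf4 nor Ikzf2 was seen to be higher there. Cd40lg had 75.9 CPM and 3.59 CPM in aneurysm, 65.0 CPM and 6.20 CPM in room air, and 96.1 CPM and 0 CPM in control. Ccl5 had 729 CPM in CD4 and 4140.1 CPM in CD8 T cells of aneurysm, 1149.9 CPM and 12137 CPM in room air, and 160.2 CPM and 3178 CPM in control, 8.96-fold lower over the summed libraries. Nkg7 was 4.45-fold lower, Ctsw, a cathepsin of cytotoxic cells, 5.28-fold lower, and Klrd1, a killer-cell lectin receptor, 3.51-fold lower. Ccl5 and Nkg7 were thus lower in CD4 than in CD8 T cells in each of the 3 libraries. These values describe the 2 gates and carry no test.

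Room air against control sets Apoe-/- mice on the Western diet beside chow-fed C57BL/6 mice, so that genotype and diet cannot be told apart. In cells without mixed barcodes 822 genes were measured, of which 21.5% (177) were at least 2-fold higher in room air and 2.80% (23) at least 2-fold lower, and the median log2 ratio was 0.23, so that a gene at the median stood above 1. With all members 943 genes were measured, 18.6% (175) at least 2-fold higher and 3.39% (32) at least 2-fold lower. Without mixed barcodes ribosomal genes made up 28.4% of the UMIs in room air and 41.2% in control, which bears on the CPM of all other genes. With totals free of mitochondrial and ribosomal genes the excess of higher genes over all members was smaller, as given in the closing section. The 15 control cells held 31204 UMIs. Of 8 measured naive genes 5 were lower in room air and 4 were past 2-fold lower (Ccr7, Klf2, Lef1 and Dapl1), and the list summed to 3112 CPM in room air, against 5993 CPM in control, a ratio of 0.519 (0.438 to 0.618). Ccr7 had a ratio of 0.261 (0.122 to 0.566), Klf2 of 0.325 (0.228 to 0.467) and Lef1 of 0.346 (0.204 to 0.599). These 3 genes are part of the naive score, so that they restate its direction. Bcl2, the survival gene that IL-7 maintains, had 214 CPM in aneurysm cells, 299 CPM in room air cells and 737 CPM in control cells, and a room air over control ratio of 0.405 (0.241 to 0.701). Naive genes of the CD8 gate had a ratio of 0.465 (0.419 to 0.518) and those of the B cell gate 0.913 (0.820 to 1.02).

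The experienced list had a ratio of 1.33 (1.14 to 1.56) in room air over control without mixed barcodes and 1.06 (0.927 to 1.20) with mixed barcodes, where it was 0.881 once mitochondrial and ribosomal genes were left out of the totals and 0.922 with median-of-ratios scaling, so that its direction depended on the scaling. Without mixed barcodes 5 of 10 measured genes were higher. Lgals1 had a ratio of 4.35 (2.24 to 9.65), and Itgb1, with 71 UMIs in room air and 0 in control, was at least 4.80-fold higher against the floor of 3 UMIs. The regulatory list had 264 UMIs in room air and 10 in control, a ratio of 5.35 (2.86 to 11.3), which was 3.53 (2.17 to 6.15) with mixed barcodes, and all 4 measured genes were past 2-fold higher. Ikzf2 was at least 3.65-fold higher and Tnfrsf4 at least 2.50-fold higher. The type 1 list had 101 UMIs in room air and 2 in control, a ratio of 10.2 (2.76 to 85.7), but 1 of its 14 genes was measured. Costimulation genes had a ratio of 2.07 (1.43 to 3.10), and 6 of 7 measured genes were higher, 4 of them past 2-fold. Cd28 had a ratio of 4.73 (1.55 to 23.5), from 70 UMIs in room air and 3 in control, and Ccl5 of 7.18 (3.02 to 22.4). Ifngr1, a chain of the interferon-gamma receptor, had 445 CPM in aneurysm cells, 572 CPM in room air cells and 32.0 CPM in control cells, with 1 UMI in control. The chemokine receptor and tissue retention list had a ratio of 1.06 (0.750 to 1.53). The room air cells were thus higher in the sums of the regulatory, type 1 and costimulation lists, against a control library of few cells.

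Among programs beyond T cell differentiation, immediate early and chaperone genes had a ratio of 0.579 (0.531 to 0.631) in aneurysm over room air. Of 14 measured genes 12 were lower and 4 past 2-fold lower, beside 7.33% of all measured genes past 2-fold lower. The CD8 gate had 0.599 (0.572 to 0.628) and the B cell gate 0.576 (0.550 to 0.603), so that the difference was as large outside CD4 T cells. With mixed barcodes included it was 0.719 (0.670 to 0.772), and 1.01 after subtraction of each library's free RNA. Hspa8, a constitutive chaperone, had 1590.2 CPM in aneurysm cells, 3086 CPM in room air cells and 865 CPM in control cells, a ratio of 0.515 (0.453 to 0.586), and its partner Dnaja1 had 333 CPM in aneurysm cells, 890.0 CPM in room air cells and 320.5 CPM in control cells, a ratio of 0.374 (0.287 to 0.488). B cells had 1309 CPM, 2802 CPM and 1148 CPM of Hspa8 in aneurysm, room air and control. The part of tissue handling in these genes was not tested.

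Interferon response genes had a ratio of 0.772 (0.698 to 0.853) in aneurysm over room air, with 14 of 17 measured genes lower and 4 past 2-fold lower. The median log2 ratio of the list was -0.44. Over all measured genes it was -0.10, and 7.33% were past 2-fold lower. The CD8 gate had 0.787 (0.737 to 0.840), while the B cell gate had 0.995 (0.932 to 1.06). Rtp4, an interferon-induced chaperone, had 29.7 CPM in aneurysm cells, 182 CPM in room air cells and 32.0 CPM in control cells, a ratio of 0.163 (0.0678 to 0.356) that was 0.359 (0.211 to 0.612) over all members, and Ifi27l2a, the most abundant gene of the list, had 1363 CPM in aneurysm cells, 1832 CPM in room air cells and 577 CPM in control cells, a ratio of 0.744 (0.638 to 0.868). Ly6c1 went the other way, with 115 CPM in aneurysm cells, 32.5 CPM in room air cells and 128 CPM in control cells, a ratio of 3.56 (1.39 to 11.6). In room air over control the interferon list had a ratio of 2.32 (1.76 to 3.09). Class I presentation genes had a ratio of 0.875 (0.831 to 0.921) in aneurysm over room air and 1.65 (1.46 to 1.87) in room air over control, where 10 of 11 measured genes were higher. Of these, 3 were past 2-fold higher, and the median log2 ratio of the list was 0.87. Over all genes measured in room air over control it was 0.23, with 21.5% past 2-fold higher. The larger ribosomal share of control bears on both lists there. B2m, the light chain of class I molecules, had 5648 CPM in aneurysm cells, 6327 CPM in room air cells and 4006 CPM in control cells, with ratios of 0.893 (0.825 to 0.967) and 1.58 (1.31 to 1.92). The sums of the interferon and class I lists were thus highest in room air in CD4 T cells.

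Proximal T cell receptor signalling genes (Lck, Zap70, Lat and others) had a ratio of 1.04 (0.939 to 1.15) in aneurysm over room air, with 6 of 16 measured genes higher, and 0.845 (0.767 to 0.932) over all 206 cells. Lck, the kinase bound to CD4, had 597 CPM in aneurysm cells, 630.1 CPM in room air cells and 320.5 CPM in control cells, a ratio of 0.948 (0.737 to 1.23), and 0.704 (0.552 to 0.903) over all members. Cd5, an inhibitory receptor set by the strength of receptor signalling, had 181 CPM in aneurysm cells, 104 CPM in room air cells and 96.1 CPM in control cells, a ratio of 1.75 (0.986 to 3.26), and 1.13 (0.652 to 2.07) over all members. Cell cycle genes had a ratio of 1.26 (1.12 to 1.43), with 9 of 10 measured genes higher and 5 past 2-fold higher, but over all 206 cells the ratio of 1.23 (1.10 to 1.38) turned to 0.982 as a mean over cells. They came from few cells: Birc5, needed for cell division, had 16 UMIs in 3 aneurysm cells, 10 of them in 1 cell, and Stmn1, a microtubule regulator, had 69 UMIs in 10 aneurysm cells, 30 of them in 1 cell, against 9 UMIs in 8 room air cells. Glycolysis genes had a ratio of 0.940 (0.849 to 1.04) and NRF2 and aryl hydrocarbon targets, which respond to smoke constituents in other cells, 0.796 (0.690 to 0.918), with 7 of 9 measured genes lower and 0 past 2-fold. Over all members the glycolysis ratio was 1.04 (0.951 to 1.14) and that of the NRF2 and aryl hydrocarbon targets 1.05 (0.939 to 1.19), with 5 of 9 genes higher, so that the direction of both turned with the mixed barcodes. Gpx1, a glutathione peroxidase, had 231 CPM in aneurysm cells, 455 CPM in room air cells and 96.1 CPM in control cells, a ratio of 0.508 (0.359 to 0.718), which was 0.908 (0.715 to 1.16) over all members.

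**Figure D5:**
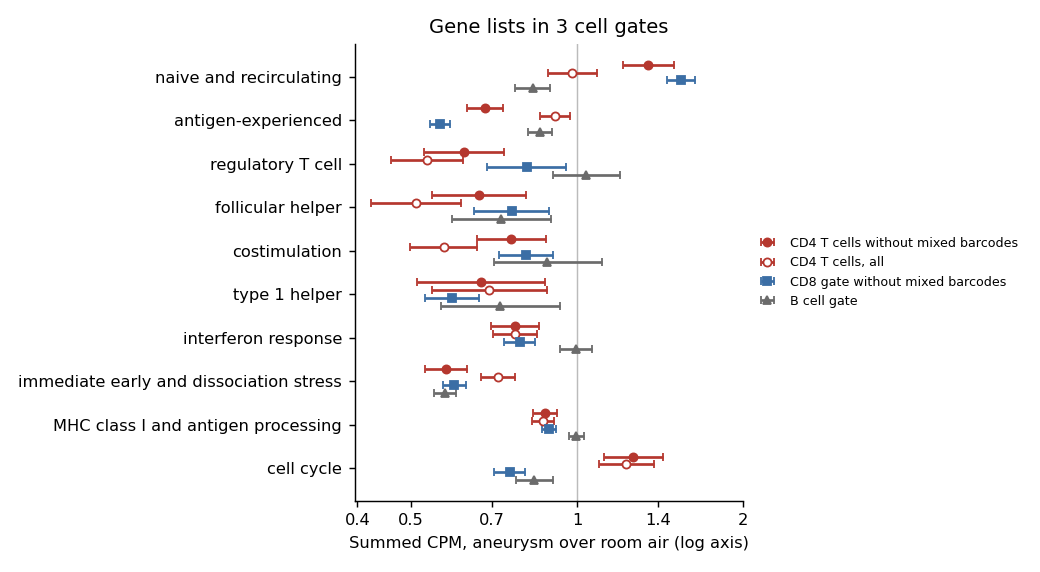
Ratio of summed CPM in aneurysm over room air (log axis) for 10 gene lists in CD4 T cells without mixed barcodes (filled red), all CD4 T cells (open red), the CD8 gate (blue) and the B cell gate (grey), with exact conditional binomial 95% intervals. The naive list is 1.35 in CD4 and 1.54 in CD8 T cells without mixed barcodes, against 0.831 in B cells. The stress list is 0.579 in CD4 and 0.599 in CD8 T cells without mixed barcodes, and 0.576 in B cells. The CD8 gate is without mixed barcodes, and the B cell gate was not filtered for them.

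Ranked over all measured genes by the bound of the ratio nearest to 1, the genes highest in aneurysm over room air without mixed barcodes included Igfbp4, Stmn1 and Satb1 together with Bud31 (5.76-fold, 1.81 to 29.3), a splicing factor gene, and Klrc1, encoding the lectin receptor NKG2A, with 15 UMIs in 5 aneurysm cells and 0 UMIs in room air. Over all 206 cells the ranking was led by genes of the mixed barcodes: Cd209a, a dendritic cell lectin, was 9.89-fold higher (4.15 to 30.9), from 18 aneurysm cells, and Cd74 2.58-fold higher (2.40 to 2.76). With all members 4014 genes were measured, 7.08% (284) at least 2-fold higher in aneurysm and 5.36% (215) at least 2-fold lower. Without mixed barcodes the genes furthest below room air were Slpi, a secreted protease inhibitor, at 9.14-fold lower (5.08 to 17.6), Spp1, encoding osteopontin, at 4.79-fold lower (3.43 to 6.77), and Jchain, the joining chain of antibodies, at 5.56-fold lower (3.14 to 10.3). Over all members Spp1 was 8.59-fold lower (6.90 to 10.8), with 175 of its 306 room air UMIs in 1 cell.

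B cells and CD8 gate T cells had the same order of the libraries for Spp1 as the CD4 T cells. Spp1 had 168 CPM in aneurysm cells, 806 CPM in room air cells and 0 CPM in control cells, and was detected in 35 of 105 aneurysm cells, 47 of 58 room air cells and 0 of 15 control cells. B cells had 201 CPM, 761 CPM and 0 CPM of Spp1, and CD8 gate T cells 161 CPM, 694 CPM and 0 CPM. The 9 macrophage markers, Spp1 among them, summed to 785 CPM in aneurysm, 2787 CPM in room air and, in control, 801 CPM in CD4 T cells without mixed barcodes, with all 9 detected in aneurysm and room air and 4 in control. Slpi had 102 CPM and 1162 CPM in aneurysm and room air B cells, above its 46.2 CPM and 422 CPM in CD4 T cells. The part of transcripts from other cells in these levels was not tested. The 3 complement genes C1qa, C1qb and C1qc, which the rule limits, made up 0.0565% of CD4 T cell UMIs in aneurysm, 0.169% in room air and 0.0746% in control, beside 0.0695%, 0.185% and 0.0873% in B cells. Macrophage transcripts outside macrophages were thus most frequent in room air. Their part in the lower aneurysm levels of Lgals3, Capg and Gpx1, which macrophages also express, was not tested. Nor was their part in the experienced genes and the experienced range of room air. Icos had 2.25 CPM in aneurysm B cells and 4.30 CPM in room air B cells, and Il7r 13.5 CPM and 19.3 CPM.

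Aneurysm over control shares the control cells with the preceding comparison. Of 736 genes measured without mixed barcodes, 13.2% (97) were at least 2-fold higher in aneurysm and 1.90% (14) at least 2-fold lower. With all members 916 were measured, 18.3% (168) higher and 3.38% (31) lower by that fold. Without mixed barcodes ribosomal genes made up 35.1% of the UMIs in aneurysm, beside 41.2% in control. The naive list had a ratio of 0.699 (0.599 to 0.820), the experienced list 0.904 (0.775 to 1.06), the regulatory list 3.34 (1.79 to 7.02) and costimulation 1.57 (1.09 to 2.34). Over all members the regulatory ratio was 1.89 (1.17 to 3.27) and that of costimulation 1.15 (0.813 to 1.68), whose interval includes 1. Without mixed barcodes the aneurysm cells thus lay between room air and control for the naive list, while over all members it summed to 2831 CPM in aneurysm, 2887 CPM in room air and, in control, 5219 CPM. For the regulatory list aneurysm was above control, where the list had 10 UMIs without mixed barcodes.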

How the data were processed

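The deposited values are counts, whole numbers of UMIs per gene and cell barcode, which the authors made without normalization. Per the labels' protocols the libraries used the 10x Genomics 3′ v2 kit, and Cell Ranger and STAR with mm10 are named in the submitters' processing notes, and their versions are not stated there. The deposited matrices list 27998 genes and 2842, 1851 and 782 barcodes in aneurysm, room air and control, beside 2685, 1736 and 738 cells that the labels state. T cell receptor and immunoglobulin constant genes were not analysed here, and some single genes of the lists are not reported here. Scrublet marked 3 of 5465 barcodes (0.0549%) and was not used, so doublets were not removed.

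The members and gene lists were chosen with earlier results of these data known. Members were found by the stated rule and their UMIs summed per library with Python 3.11.15, numpy 2.4.6, pandas 2.3.3 and scipy 1.17.1. CPM is the summed count per 1e+06 UMIs of the summed cells. Ratios of CPM carry exact conditional binomial 95% intervals, and shares exact Clopper-Pearson 95% intervals. The B cell gate holds barcodes with at least 2 Cd79a UMIs, 0 Cd3 UMIs and C1q genes under 0.4% of UMIs. A gene was measured where at least 5 UMIs were expected in the smaller library, and called at 2-fold or more. A level of 0 was set to a floor of 3 UMIs per library for bounds. Genes were named list by list, those past 2-fold first, and beyond the lists by the bound of the ratio nearest to 1, up to 12 per direction. The functions were checked on simulated counts. Alternatives changed the gate, the scaling, the minimum of expected UMIs, and the treatment of free RNA. Promoters come from RefSeq (GRCm38.p6) and coordinates from GENCODE M21 on GRCm38 (mm10).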

Additional observations from a re-analysis of the deposited data

How the results depend on the processing

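No paired analysis was possible because each group is 1 library, which also means that leaving out a replicate could not be run. Values here are over all 206 cells, and the alternative without mixed barcodes was added after seeing the data. Of the main results under all alternatives, 142 values stayed within the set limits and 57 moved. A reversal was counted only for ratios whose interval excluded 1, so that the naive ratio of aneurysm over room air (0.981) and the experienced ratio of room air over control (1.06) count as moved where they crossed 1. Of the other lists, 595 stayed, 74 moved and 10 reversed. The cause of each change was not tested. With at least 3 Cd3 UMIs the experienced list had a ratio of 0.839 in aneurysm over room air. Without counting Izumo1r, CD4 T cells were 2.50% of barcodes in aneurysm and 2.22% in room air, Foxp3 was detected in 0% of room air cells, the regulatory ratio of aneurysm over room air was 0.647, 99 genes were higher and 17 lower in room air over control, 94 were higher in aneurysm over control, and the cytotoxic list reversed to 0.875 there. With 0 C1q UMIs the shares were 0.986%, 0.0541% and 0.386% in aneurysm, room air and control, Foxp3 was detected in 0% of aneurysm cells, and too few cells were left for ratios. On barcodes thinned to 1000 UMIs the shares were 1.69%, 1.68% and 1.03%. In aneurysm over room air 125 genes were then higher, the naive ratio was 1.33, the experienced 0.752 and the regulatory 0.920, and proximal receptor signalling (1.16), cell cycle (0.782) and survival (1.12) reversed. Ratios to control were not run there, with 8 control cells. Without mixed barcodes the aneurysm share was 3.70% and its naive range 47.6%. In aneurysm over room air the naive ratio was then 1.35, the experienced 0.681 and the regulatory 0.623, and proximal receptor signalling reversed to 1.04. The experienced ratio of room air over control was 1.33, and 97 genes were higher and 14 lower in aneurysm over control. With totals free of mitochondrial and ribosomal genes, room air over control had 93 genes higher and 60 lower, a naive ratio of 0.462 and an experienced ratio of 0.881, and aneurysm over control had 104 higher and 53 lower. With median-of-ratios scaling, 113 genes were higher in room air over control and the experienced ratio was 0.922. With at least 20 expected UMIs, 34 genes were higher and 19 lower in aneurysm over room air, 14 and 4 in room air over control, where the naive ratio was 0.352 and the cell cycle reversed to 1.25, and 25 and 7 in aneurysm over control. With at least 1 expected UMI these pairs were 829 and 1002, 583 and 736, and 525 and 725. As a mean over cells, aneurysm over room air had a naive ratio of 1.30 and an experienced ratio of 0.758, room air over control had an experienced ratio of 1.73, and the cell cycle reversed to 0.982 and 1.02. With free RNA subtracted, 614 genes were higher and 1453 lower in aneurysm over room air, where the stress list reversed to 1.01. In room air over control 320 were lower, the experienced ratio was 3.57 and the regulatory 10.9, and in aneurysm over control 305 were lower and glycolysis reversed to 0.710. Depth limits control most, where 1 UMI is worth 27.6 CPM.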
